A study of Mus musculus with 12 samples.

Results

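The 10 genes described here encode parts of the RNA polymerase I (Pol I) machinery and proteins of the nucleolus, and were chosen by gene symbol from the 54532 genes of the count table, over all samples. The Pol I side holds Ubtf, Rrn3, Polr1a, Polr1b and Taf1d, and the nucleolar side holds Npm1, Ncl, Fbl, Nop56 and Nop58. All 10 symbols were found, and all 10 passed the filter on low counts. Poly(A)-selected RNA was sequenced from E14 mouse embryonic stem cells of 3 genotypes, in 6 groups of 2 libraries. The groups are wild type (WT), p53 KO and Dux KO cells, each given 1 uM doxorubicin for 6 h and then drug-free medium, or DMSO for 6 h and then fresh medium. Doxorubicin is a topoisomerase II poison that breaks DNA, p53 is the transcription factor activated by such breaks, and Dux is a transcription factor of the early embryo. All groups shared gelatin-coated dishes and 2i+LIF medium with serum, PD0325901 and CHIR99021, and the labels mention drug selection of stable lines. How long the cells stayed without drug is not stated in the labels. Both WT replicates carry the name of a single line, while library 1 and library 2 of a knockout come from different knockout lines. The labels call the duplicates biological, but whether the WT duplicates were separate cultures is not stated, so p-values measure the spread between these libraries.

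Ribosomal RNA is transcribed in the nucleolus by Pol I from the repeated rDNA genes, and growing stem cells spend much of their transcription on it. UBTF coats active rDNA, the selectivity complex that contains TAF1D marks the promoter, and RRN3 (TIF-IA) brings the polymerase to it. The transcript is then cleaved, modified and folded with the help of small nucleolar RNAs (snoRNAs) and their proteins, among them fibrillarin, NOP56 and NOP58, and of the abundant nucleolar proteins nucleolin and nucleophosmin. DNA damage is known to silence Pol I and to release nucleolar proteins. Poly(A) RNA does not measure ribosomal RNA synthesis itself, so the values below are transcript levels of the proteins that carry it out.

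Total counts ran from 23270358 to 56795858 per library. The deposited count column of Dux KO control library 2 repeats that of Dux KO doxorubicin library 1 in all 54532 genes, so tests used the other 11 libraries, and values of that library come from its deposited FPKM column. The single Dux KO control left in the tests is taken to have the same spread as the libraries of other groups. Trp53, the p53 gene, lay at 193 and 159 CPM (counts per 1000000 counts of a library, after TMM correction of its size) in the WT controls and 135 and 133 CPM after drug. For p53 KO cells Trp53 lay at 72.4 and 39.8 CPM with vehicle and 95.5 and 42.6 CPM after drug, so RNA of the gene was still counted. In Dux KO cells Trp53 lay at 243 and 243 CPM with vehicle and 135 and 136 CPM after drug. Duxf3, the mouse Dux gene, had 2 and 0 counts in WT controls, 670 and 685 after drug, 0 to 114 in p53 KO libraries, and was at 0 throughout Dux KO cells. The summed level of 8 embryonic stem cell markers, none of them at 0, was 4576 to 6107 CPM in the controls, 826 and 954 CPM in WT after drug, 2322 and 3013 CPM in p53 KO after drug and 1878 and 2144 CPM in Dux KO after drug. The summed level of 7 markers of 2-cell-like cells was 2.68 and 3.51 CPM in WT controls, 1208 and 1425 CPM in WT after drug and 18.1 to 59.3 CPM in p53 KO. All 7 of these markers were at 0 in both drug-treated Dux KO libraries. Summed markers of trophectoderm, primitive endoderm and fibroblasts reached at most 139, 36.6 and 29.7 CPM in any library. In bulk RNA a change in the share of such cells and a change in RNA per cell cannot be told apart, and the part of either in the results below was not tested. Ribosomal RNA loci took 0.0886% to 0.762% of counts, except in WT doxorubicin library b, where they took 3.93%.

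In WT cells, 7 of the 10 genes fell after doxorubicin, 2 rose and Taf1d did not pass the test. The largest fall was that of Npm1, to 0.329 of its vehicle level, and the largest rise that of Polr1a, to 2.07 times its vehicle level. The 5 nucleolar protein genes all fell, while the Pol I genes split in direction. Of all 28643 genes tested in WT, 52.4% were called at an adjusted p under 0.05 (edgeR's quasi-likelihood test), 23.4% down and 29% up. Among the 14635 genes of at least 5 CPM, 36.7% fell and 25.4% rose. The median log2 change was -1.06 over the members, 0.13 over all genes tested and -0.21 over genes of at least 5 CPM. The response of each gene in the 3 genotypes, with its 95% interval, is plotted beside the levels by library.

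**Figure D1:**
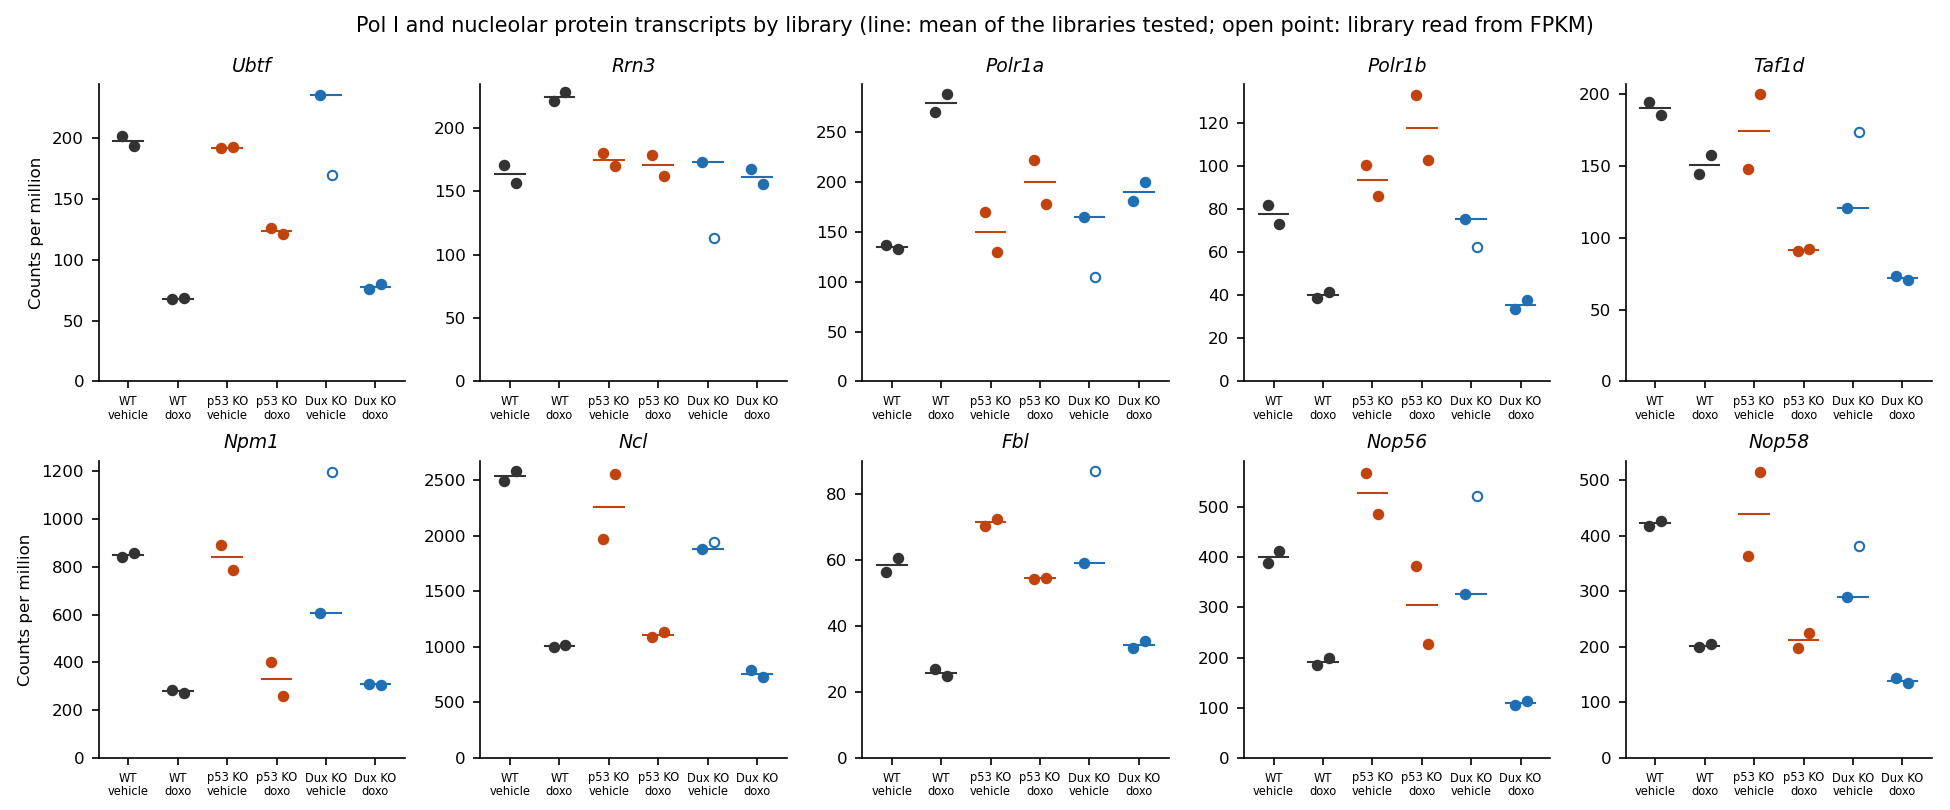
CPM (y axis, from 0) of the 10 genes in each library, by genotype and treatment (x axis; doxo, doxorubicin). Points are libraries, lines are means of the libraries tested, and the open point is the Dux KO control library read from FPKM; in WT cells Ubtf drops from 202 and 193 to 67.6 and 68.3, while Polr1a climbs from 137 and 132 to 270 and 288.

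**Figure D2:**
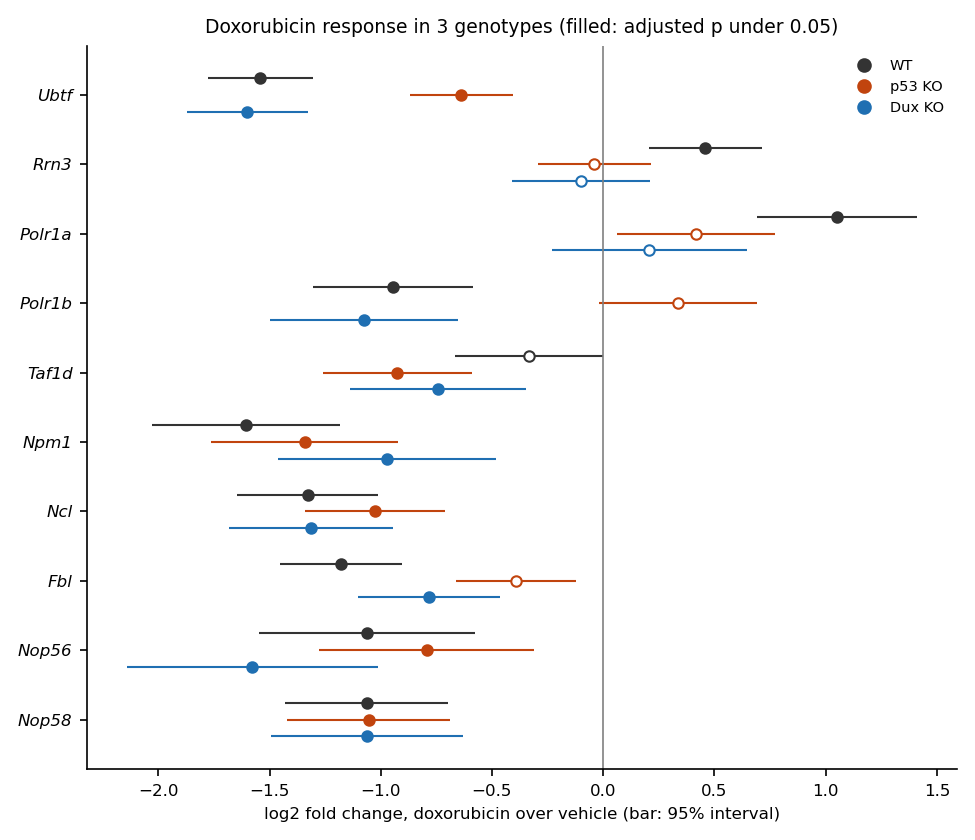
log2 change after doxorubicin (x axis) of the 10 genes (y axis) in WT, p53 KO and Dux KO cells, with 95% intervals as bars; filled points passed an adjusted p of 0.05. Nucleolar protein genes lie left of 0 in all 3 genotypes, and Polr1b lies at -0.95 in WT, 0.34 in p53 KO and -1.08 in Dux KO.

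Among the factors that open and mark rDNA, Ubtf (ENSMUSG00000020923, chr11:102304560-102319742, minus strand, GRCm38) stood at 202 and 193 CPM in WT with vehicle and 67.6 and 68.3 CPM after doxorubicin. Both drug libraries were far below both controls and lay close together. Ubtf fell by 1.54 on the log2 scale (SE 0.10, adjusted p = 1.2e-05), and was called in 15 of 15 alternative analyses. Taf1d (ENSMUSG00000031939, chr9:15306214-15316991, plus strand), a TBP-associated subunit of the Pol I selectivity complex, stood at 195 and 186 CPM in WT with vehicle and 145 and 158 CPM after drug. The drug libraries were both lower, by a log2 difference of -0.33 (SE 0.15), which missed the threshold at an adjusted p of 0.085. With the line of each knockout as a block, which was fitted to all groups together, the same difference had an adjusted p of 0.017, but 0.092 in that fit with 12 libraries, and Taf1d was called in 2 of 15 alternatives.

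Rrn3 (ENSMUSG00000022682, chr16:13780708-13814839, plus strand), the initiation factor that recruits Pol I, stood at 171 and 156 CPM in WT with vehicle and 221 and 229 CPM after doxorubicin. The drug libraries were the 2 highest of all libraries for this gene. Rrn3 rose by 0.46 (log2, SE 0.11, adjusted p = 0.0082). This call was the least firm of the WT calls: it was kept in 9 of 15 alternatives. It was lost with the recovered Dux KO library in the fit (adjusted p = 0.058), without WT control b (log2 0.39, adjusted p = 0.076) and without WT doxorubicin b, the library rich in ribosomal RNA (log2 0.35, adjusted p = 0.08). On the FPKM scale its adjusted p was 0.062 to 0.093.

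The catalytic subunits of Pol I moved in opposite directions in WT cells. Polr1a (ENSMUSG00000049553, chr6:71909053-71984935, plus strand), which encodes the largest subunit, stood at 137 and 132 CPM with vehicle and 270 and 288 CPM after drug. Polr1b (ENSMUSG00000027395, chr2:129100995-129126594, plus strand), which encodes the second-largest subunit, stood at 81.9 and 73.1 CPM with vehicle and 38.9 and 41.5 CPM after drug. For neither gene did the groups overlap. The share of all genes whose 2 groups separate in this way was not counted, here or for the other comparisons. Polr1a rose by 1.05 (log2, SE 0.16, adjusted p = 0.00062). Polr1b fell by 0.95 on the log2 scale (SE 0.16, adjusted p = 0.0011). Both were called in 15 of 15 alternatives. In the authors' deposited table the WT log2 changes were 1.09 for Polr1a, -0.91 for Polr1b, 0.49 for Rrn3, -1.51 for Ubtf, -1.57 for Npm1 and -0.30 for Taf1d. The authors' deposited table gives Taf1d an adjusted p of 0.0026, so their own test called it.

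The gene length implied by counts and FPKM lay within 1% of the whole gene span in 98.3% of 11405 well-counted genes. FPKM were therefore divided by the span, introns included. Whether the counts themselves include intronic reads is not shown by this, because exon counts divided by the span would give the same length. Of the 10 genes, the 2 that rose in WT have the most intron for their exons. The span was 7.90 times the exonic length in Rrn3 and 6.39 times in Polr1a, against 4.41 in Polr1b, 4.10 in Npm1, 3.17 in Nop58, 2.32 in Ubtf, 2.27 in Fbl, 1.44 in Ncl, 1.20 in Taf1d and 1.19 in Nop56. Over protein-coding genes of at least 5 CPM, the median WT log2 change was -0.24 where this ratio was under 2, -0.29 at 2 to 4, -0.21 at 4 to 6, -0.13 at 6 to 8, -0.12 at 8 to 12 and 0.15 at 12 and over. In the class of 6 to 8, which holds Rrn3 and Polr1a, 26.8% of 1364 genes rose and 33.9% fell. In p53 KO cells the order ran the other way, from a median of 0.05 under 2 to -0.13 at 12 and over. In Dux KO cells the medians differed little, from -0.02 under 2 to -0.11 at 8 to 12 and -0.05 at 12 and over. Whether intronic reads have a part in the rises of Rrn3 and Polr1a was not tested. Inside Polr1a, mostly in introns, lies the antisense gene Gm26628, which had 165 and 183 counts in WT controls and 466 and 455 after drug (log2 1.18, SE 0.23, adjusted p = 0.0024). Its reads and those of Polr1a on the other strand cannot be told apart where the counting did not use strand.

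The starts of these genes are shown because the members moved in both directions. RefSeq promoters (GRCm38.p6) were given for 8 of the 10 genes, with 6 starts for Ubtf and 1 start for each of the other 7, and none for Npm1 and Fbl. The 250 bases upstream of each start were searched on both strands for the letters of several promoter motifs. The E-box, which MYC-family factors bind, was searched as CACGTG. The box bound by the factor NF-Y was searched as its own name, CCAAT. The GC box of SP-family factors was searched as GGGCGG. The TATA box, where the general initiation machinery binds, was searched as TATAAA. These motifs occur in 6%, 33.8%, 32.7% and 12.4% of all 32851 such windows. Among the 7 members with a single start, the E-box was in 1, the CCAAT box in 2, the GC box in 5 and the TATA box in 0. The E-box holder was Rrn3, with 2 matches, and the windows of the genes that rose, Rrn3 and Polr1a, had no GC box, while those of Polr1b and Ncl, which fell, did. Ubtf had a GC box at 5 of its 6 starts and a CCAAT box at 1. A match describes letters only, not a bound site. The windows of the 2 genes that rose and of 2 that fell read as follows, 5′ to 3′ on the gene's own strand, with matches in capitals.
Rrn3 (chr16:13780449-13780698, plus strand): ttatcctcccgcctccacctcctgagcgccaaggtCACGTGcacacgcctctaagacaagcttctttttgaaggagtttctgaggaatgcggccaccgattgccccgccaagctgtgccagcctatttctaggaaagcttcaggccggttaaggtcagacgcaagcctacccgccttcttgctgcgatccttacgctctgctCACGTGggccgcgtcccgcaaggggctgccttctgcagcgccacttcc
Polr1a (chr6:71908803-71909052, plus strand): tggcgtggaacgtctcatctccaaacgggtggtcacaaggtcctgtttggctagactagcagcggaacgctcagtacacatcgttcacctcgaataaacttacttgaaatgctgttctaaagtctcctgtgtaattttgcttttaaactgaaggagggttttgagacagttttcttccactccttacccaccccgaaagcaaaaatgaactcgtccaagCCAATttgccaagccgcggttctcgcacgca
Polr1b (chr2:129100746-129100995, plus strand): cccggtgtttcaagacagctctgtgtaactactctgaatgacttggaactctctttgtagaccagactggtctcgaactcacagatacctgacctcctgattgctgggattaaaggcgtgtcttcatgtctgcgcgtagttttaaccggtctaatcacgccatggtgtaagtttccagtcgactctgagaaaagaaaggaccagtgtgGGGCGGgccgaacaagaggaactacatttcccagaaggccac
Ncl (chr1:86359456-86359705, minus strand): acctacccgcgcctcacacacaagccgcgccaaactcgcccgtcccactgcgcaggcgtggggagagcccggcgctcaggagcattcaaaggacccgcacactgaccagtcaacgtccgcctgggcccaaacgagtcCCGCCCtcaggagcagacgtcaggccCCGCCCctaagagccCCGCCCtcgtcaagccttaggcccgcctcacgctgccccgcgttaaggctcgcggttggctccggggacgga
The capitals are 2 E-boxes in Rrn3, 1 CCAAT box in Polr1a, 1 GC box in Polr1b and 3 GC boxes on the opposite strand in Ncl, and no match overlaps another. The share of G and C was 59.6% in the Rrn3 window, 47.6% in Polr1a, 49.6% in Polr1b and 69.6% in Ncl.

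Of the abundant nucleolar proteins, Ncl (ENSMUSG00000026234, chr1:86344719-86359400, minus strand), which encodes nucleolin, had the highest deposited FPKM of the 10 genes in WT controls, at a mean of 176. The mean control FPKM was 83.3 for Nop56, 79.2 for Npm1, 18.0 for Taf1d, 13.2 for Ubtf, 12.6 for Nop58, 6.23 for Fbl, 4.88 for Rrn3, 3.08 for Polr1b and 1.80 for Polr1a. These FPKM are per kilobase of gene span, and Npm1 came first when the CPM was divided by exonic length, at 319 CPM per exonic kilobase against 249 for Ncl. Ncl stood at 2495 and 2582 CPM in WT with vehicle and 1002 and 1019 CPM after drug. The groups were wide apart, and Ncl fell by 1.33 on the log2 scale (SE 0.14, adjusted p = 8.8e-05).

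Npm1 (ENSMUSG00000057113, chr11:33152287-33163206, minus strand) encodes nucleophosmin, a histone and ribosome chaperone of the outer nucleolus. It stood at 841 and 859 CPM in WT with vehicle and 286 and 273 CPM after drug. Both drug libraries were at about the same low level. Npm1 fell by 1.60 on the log2 scale (SE 0.19, adjusted p = 0.00015).

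The remaining 3 nucleolar genes encode the core of box C/D snoRNPs, the particles that methylate ribosomal RNA. Fbl (ENSMUSG00000046865, chr7:28169710-28179269, plus strand), the methyltransferase fibrillarin, stood at 56.4 and 60.6 CPM in WT with vehicle and 27.0 and 24.7 CPM after drug. Nop56 (ENSMUSG00000027405, chr2:130274430-130279313, plus strand) stood at 388 and 412 CPM with vehicle and 185 and 198 CPM after drug. Nop58 (ENSMUSG00000026020, chr1:59684971-59719044, plus strand) stood at 418 and 427 CPM with vehicle and 199 and 205 CPM after drug. The 3 genes dropped by like amounts, with no overlap between groups, though the share of all genes without overlap was not counted. Fbl fell by 1.18 on the log2 scale (SE 0.12, adjusted p = 7.6e-05), Nop56 by 1.06 (SE 0.21, adjusted p = 0.003) and Nop58 by 1.06 (SE 0.16, adjusted p = 0.00066). All 5 nucleolar protein genes were called down in WT in 15 of 15 alternatives.

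Several of these genes host other RNAs. The spans of Taf1d, Nop56, Nop58 and Ncl hold 8, 5, 4 and 3 annotated snoRNAs on the same strand, and Taf1d and Ncl hold 2 and 1 annotated miRNAs. In any library the most counted of these small RNAs had 470 counts, that of Nop56. It is Gm23187, with 251 and 266 counts in WT controls and 96 and 106 after drug, and it fell by 1.57 on the log2 scale (SE 0.33, adjusted p = 0.0035). Reads over a snoRNA and reads of its host gene cannot be told apart in these counts, and poly(A) selection does not retain most mature snoRNAs.

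Npm1 and Fbl have processed pseudogenes, intronless copies made by reverse transcription, that are nearly identical to them and took more counts than the genes themselves. Of the 50-base words of the annotated transcripts, 24.3% of those of Npm1 and 19.7% of those of Fbl also occur in other genes. Over the libraries with counts, 6 copies of Npm1 had 2.38 times its counts and 2 copies of Fbl had 2.74 times its counts. For Nop56 and Taf1d, copies had 0.07 and 0.11 times the gene's counts, the copy of Ncl had 320 counts against 567341, and none was found for the other 5 genes. The copy Gm5812 (chr17) aligned to the coding sequence of Fbl over 954 bases with 99.6% identity, 4 mismatches, 1 gap and 1 identical run of 648 bases. The copy Gm14681 (chrX) aligned to 408 bases of the coding sequence of Npm1 with 99.5% identity and 2 mismatches. Windows of 61 bases around mismatches show how little separates gene and copy, with each mismatch in capitals.
Fbl, coding bases 283 to 343: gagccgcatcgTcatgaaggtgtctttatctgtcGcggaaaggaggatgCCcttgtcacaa
Gm5812 (chr17:6121849-6121909, minus strand): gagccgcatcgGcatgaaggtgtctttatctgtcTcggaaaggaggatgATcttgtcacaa
Npm1, coding bases 615 to 675: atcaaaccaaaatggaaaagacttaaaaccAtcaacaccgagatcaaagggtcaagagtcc
Gm14681 (chrX:66778646-66778706, minus strand): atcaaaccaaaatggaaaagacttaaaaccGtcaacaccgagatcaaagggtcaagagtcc
Counted from 1 at the A of the start codon, with the gene's base first, the mismatches are T294G, G317T, C332A and C333T in Gm5812 and A645G in Gm14681. All 4 mismatches of Gm5812 with the Fbl coding sequence lie in this window.

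In WT cells these copies fell with their genes. Gm5812 stood at 159 and 159 CPM in WT with vehicle and 79.4 and 67.1 CPM after drug, a log2 change of -1.12 (SE 0.12, adjusted p = 8.9e-05). Gm14681 stood at 649 and 735 CPM in WT with vehicle and 228 and 210 CPM after drug, a log2 change of -1.66 (SE 0.18, adjusted p = 0.00012). Counts of gene and copy cannot be told apart with confidence, so the values of Npm1 and Fbl are uncertain as values of 1 locus. With the copies' counts added to the gene, Npm1 stood at 2532 and 2780 CPM in WT with vehicle and 872 and 814 CPM after drug (log2 -1.66, adjusted p = 9.7e-05). Fbl with its copies stood at 216 and 220 CPM with vehicle and 107 and 92.0 CPM after drug (log2 -1.13, adjusted p = 6.2e-05). Adding the copies changed no call of either gene in the responses of the 3 genotypes or in the differences of the knockouts from WT. The size of some values of Npm1 did change. With the copies, its log2 response in Dux KO went from -0.97 to -1.27. Its log2 difference between Dux KO and WT under vehicle went from -0.49 to -0.08.

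**Figure D3:**
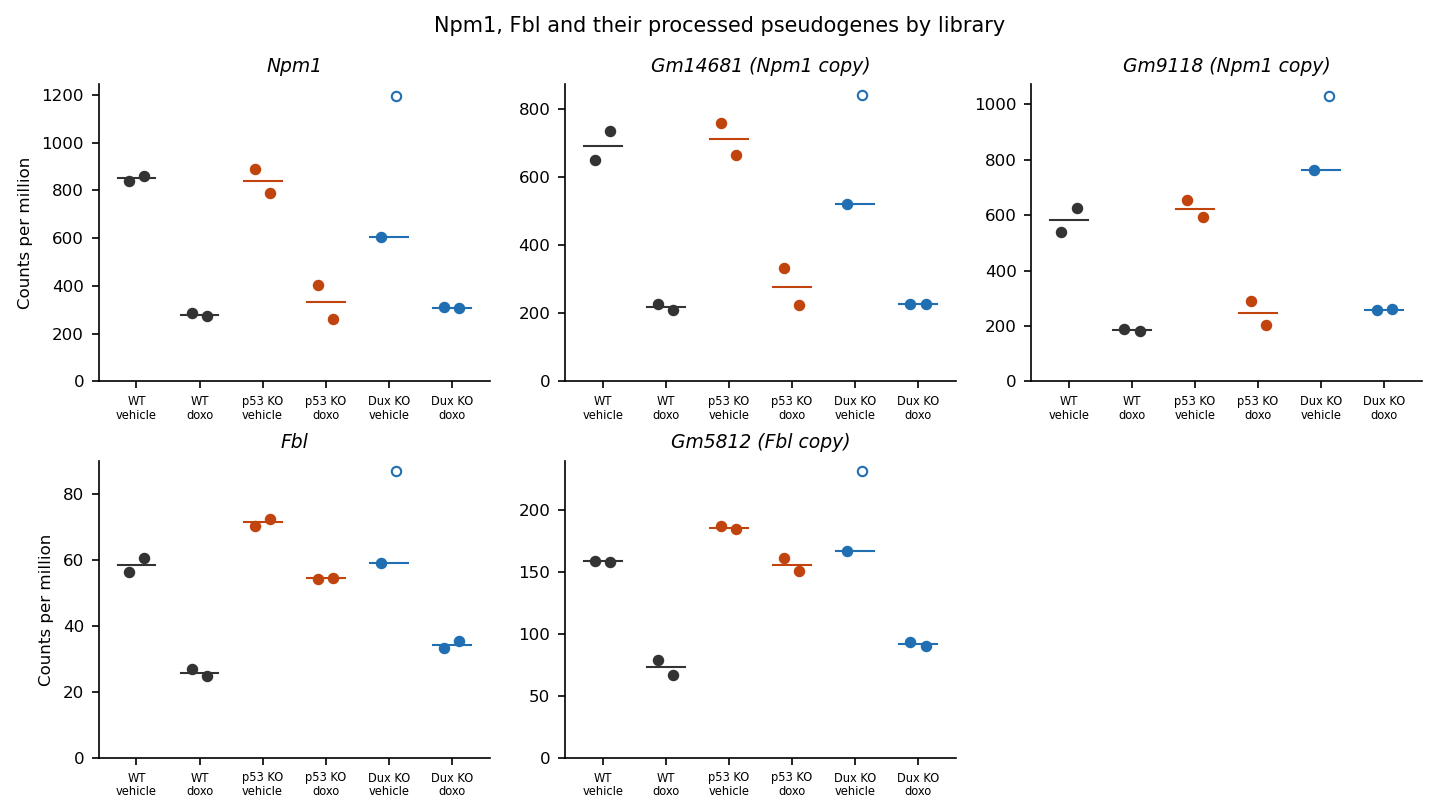
CPM (y axis, from 0) of Npm1, Fbl and 3 of their processed pseudogenes in each library, by genotype and treatment (x axis). Points are libraries, lines are means of the libraries tested, and the open point is the Dux KO control library read from FPKM. Gm5812 lies above Fbl in every library (for example 159 against 56.4 CPM). In each genotype genes and copies are lower after drug than with vehicle. In Dux KO control 1 Npm1 is low for a control, at 605 CPM, but Gm9118 is not, at 763 CPM.

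In p53 KO cells, 6 of the 10 genes fell after doxorubicin, none rose, and 4 did not pass the test. The background was 17.4% of all genes called, 8.09% down and 9.31% up, and among genes of at least 5 CPM 15% fell and 8.44% rose, with a median log2 change of -0.06. Taf1d, Npm1, Ncl, Nop56, Nop58 and Ubtf fell, and Fbl, Rrn3, Polr1a and Polr1b were not called. The median log2 change was -0.72 over the members and 0.18 over all genes tested. The fit to these 4 libraries alone called 0 members and 0 genes of 23041, where the fit shared by all groups called 6 members.

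Ubtf stood at 192 and 193 CPM in vehicle-treated p53 KO and 126 and 121 CPM after drug. The drug libraries were lower than the controls but well above the WT drug libraries. Ubtf fell by 0.64 on the log2 scale (SE 0.10, adjusted p = 0.0057). Taf1d stood at 148 and 200 CPM in vehicle-treated p53 KO and 91.1 and 92.4 CPM after drug, and fell by 0.93 (SE 0.15, adjusted p = 0.0055). In both knockout lines the drug value of Taf1d lay below the control. On the FPKM scale, which is not corrected for library composition, Ubtf had a log2 difference of -0.30 (limma, adjusted p = 0.25) and Taf1d -0.56 (adjusted p = 0.071). The TMM-corrected size was 0.888 and 0.916 of the total count in p53 KO controls and 1.07 and 1.20 after drug, and the FPKM scale has no such correction. On that scale Polr1b was called up in p53 KO, at 0.52 (limma, adjusted p = 0.029).

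Polr1b stood at 101 and 86.2 CPM in vehicle-treated p53 KO and 133 and 103 CPM after drug. Within each line the drug value was the higher, opposite to WT, but the groups lay close. The log2 difference was 0.34 (SE 0.16, adjusted p = 0.17), and 0.33 with an adjusted p of 0.018 with the line as a block, or 0.083 in that fit with 12 libraries. Polr1b was called in 4 of 15 alternatives. Polr1a stood at 169 and 130 CPM in vehicle-treated p53 KO and 222 and 178 CPM after drug. Its log2 difference was 0.42 (SE 0.16, adjusted p = 0.098), with an adjusted p of 0.0033 with the line as a block and 0.075 in that fit with 12 libraries. Polr1a was called in 3 of 15 alternatives. Rrn3 stood at 180 and 170 CPM with vehicle and 179 and 162 CPM after drug, a log2 difference of -0.04 (95% interval -0.29 to 0.21).

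Ncl stood at 1970 and 2554 CPM in vehicle-treated p53 KO and 1086 and 1136 CPM after drug, and fell by 1.03 on the log2 scale (SE 0.14, adjusted p = 0.0034). Npm1 stood at 891 and 787 CPM with vehicle and 402 and 260 CPM after drug, and fell by 1.34 (SE 0.19, adjusted p = 0.0036). Line 2 had the lower drug value of Npm1. Nop58 stood at 365 and 516 CPM with vehicle and 198 and 226 CPM after drug, and fell by 1.05 (SE 0.16, adjusted p = 0.005). Nop56 stood at 568 and 486 CPM with vehicle and 382 and 226 CPM after drug, and fell by 0.79 (SE 0.21, adjusted p = 0.035). The call of Nop56 was lost without p53 KO control 1 (log2 -0.68, adjusted p = 0.11) or control 2 (log2 -0.90, adjusted p = 0.052), and with 12 libraries (adjusted p = 0.068). Fbl stood at 70.5 and 72.4 CPM with vehicle and 54.4 and 54.5 CPM after drug. Its replicates were close together, and its log2 difference of -0.39 (SE 0.12) had an adjusted p of 0.052, of 0.006 with the line as a block and of 0.051 in that fit with 12 libraries. Fbl was called in 3 of 15 alternatives.

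In Dux KO cells, 8 of the 10 genes fell after doxorubicin, none rose, and Rrn3 and Polr1a did not pass the test. The background was 26.5% of all genes called, 11.9% down and 14.5% up, and among genes of at least 5 CPM 20% fell and 16.5% rose, with a median log2 change of -0.13. The median log2 change was -1.02 over the members and 0 over all genes tested. The 2 Dux KO control lines differed in several of these genes, and only control 1 entered the main test. Npm1 stood at 605 CPM in control 1, 1197 CPM in control 2, and 311 and 305 CPM after drug. Ubtf stood at 236 and 169 CPM with vehicle and 75.6 and 79.9 CPM after drug, and fell by 1.60 on the log2 scale (SE 0.12, adjusted p = 0.00014). Polr1b stood at 75.2 and 62.5 CPM with vehicle and 33.5 and 37.9 CPM after drug, and fell by 1.08 (SE 0.19, adjusted p = 0.0033). Both were lower in each drug library than in either control.

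The snoRNP genes were also low in drug-treated Dux KO cells. Nop56 stood at 328 and 521 CPM with vehicle and 106 and 113 CPM after drug, and fell by 1.58 on the log2 scale (SE 0.25, adjusted p = 0.0022). Nop58 stood at 290 and 381 CPM with vehicle and 144 and 134 CPM after drug, and fell by 1.06 (SE 0.19, adjusted p = 0.0039). Fbl stood at 59.2 and 87.0 CPM with vehicle and 33.2 and 35.6 CPM after drug, and fell by 0.78 (SE 0.14, adjusted p = 0.004). All drug values of the 3 genes lay below both controls. Ncl stood at 1880 and 1948 CPM with vehicle and 789 and 726 CPM after drug, and fell by 1.31 (SE 0.16, adjusted p = 0.00067). Npm1 fell by 0.97 (SE 0.22, adjusted p = 0.01), with an adjusted p of 0.06 without Dux KO doxorubicin 2. The size of its fall turned on the control line, with a log2 change of -1.56 with both controls and -1.96 with control 2 in place of control 1. With control 2 in place, the log2 change was -2.25 for Nop56, -1.34 for Fbl and -1.28 for Taf1d. Taf1d stood at 121 and 174 CPM with vehicle and 73.4 and 70.7 CPM after drug. It fell by 0.74 on the log2 scale (SE 0.18, adjusted p = 0.014), with adjusted p values of 0.052 and 0.073 without Dux KO doxorubicin 1 or 2.

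For Rrn3 and Polr1a the outcome in Dux KO cells turned on which control line was used. Rrn3 stood at 173 CPM in control 1, 113 CPM in control 2, and 168 and 156 CPM after drug. Polr1a stood at 164 CPM in control 1, 105 CPM in control 2, and 180 and 199 CPM after drug. Control 2 was the lowest library of all for both genes. With control 1 the log2 difference was -0.10 for Rrn3 (SE 0.14, adjusted p = 0.64) and 0.21 for Polr1a (SE 0.19, adjusted p = 0.48). With control 2 in its place it was 0.51 for Rrn3 (adjusted p = 0.022) and 0.85 for Polr1a (adjusted p = 0.011), and with both it was 0.16 (adjusted p = 0.53) and 0.49 (adjusted p = 0.11).

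The p53 KO response was then set against the WT response in 1 interaction test per gene. Of the 10 genes, 3 differed, Polr1b, Ubtf and Fbl, all toward a weaker fall or none in p53 KO. The background was 20.2% of all genes called, 9.9% up and 10.3% down. Among genes of at least 5 CPM, 14.8% were called up and 15.3% down. The count of 3 was near the share of these genes called in either direction. The log2 difference of responses was 1.28 for Polr1b (SE 0.22, adjusted p = 0.0047), 0.90 for Ubtf (SE 0.15, adjusted p = 0.0032) and 0.79 for Fbl (SE 0.17, adjusted p = 0.012). Polr1b and Ubtf were called in 19 of 19 alternatives and Fbl in 16 of 19. The call of Fbl was lost with 12 libraries (adjusted p = 0.059), without WT control b (log2 0.73, adjusted p = 0.063) and without WT doxorubicin b (log2 0.73, adjusted p = 0.061). Its copy Gm5812 gave a like difference, 0.86 (SE 0.17, adjusted p = 0.0071). Reads of Fbl and Gm5812 cannot be told apart with confidence, so this value is not separate support for the call of Fbl.

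**Figure D4:**
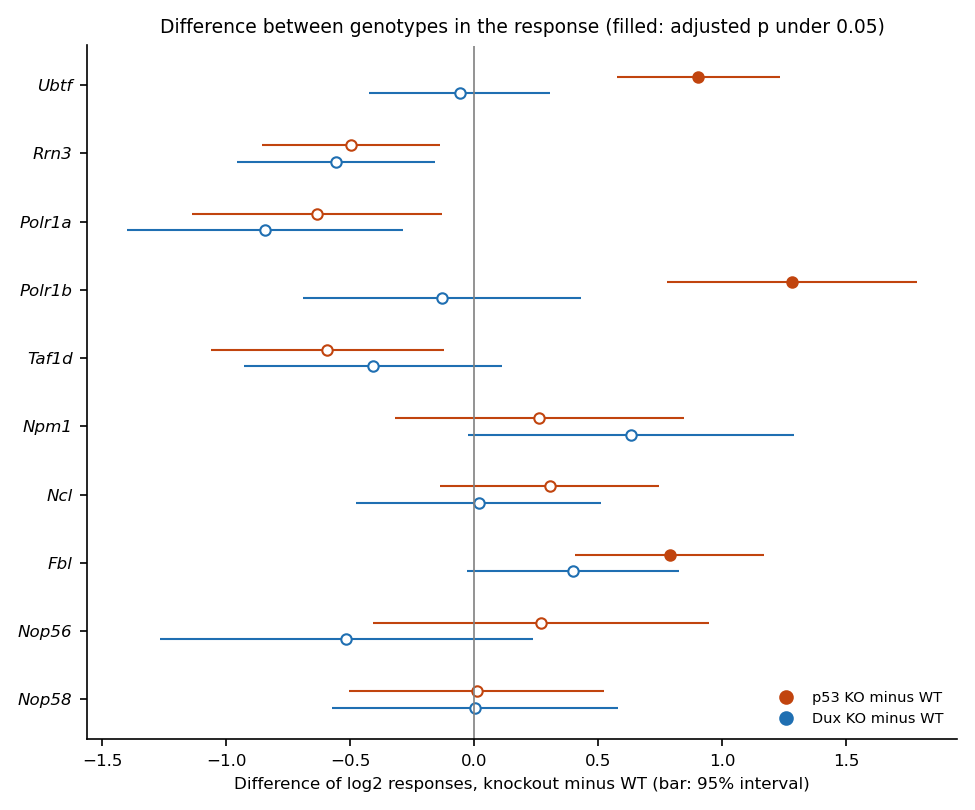
Difference between each knockout's log2 response and the WT response (x axis) for the 10 genes (y axis), with 95% intervals as bars; filled points passed an adjusted p of 0.05. For p53 KO, Polr1b (1.28), Ubtf (0.90) and Fbl (0.79) are filled, and no gene is filled for Dux KO.

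The other 7 genes were not called in this test. For Npm1, Ncl, Nop56 and Nop58 the difference was 0.26, 0.30, 0.27 and 0.01, with 95% intervals of -0.32 to 0.85, -0.14 to 0.74, -0.41 to 0.94 and -0.50 to 0.52. A difference of up to about those bounds is therefore not excluded for these genes. Rrn3, Polr1a and Taf1d had differences of -0.50, -0.64 and -0.59 with adjusted p values of 0.056, 0.077 and 0.076. All 3 were called with the knockout line as a block, with adjusted p values of 0.009, 0.0019 and 0.01, and with RLE scaling, with adjusted p values of 0.018, 0.037 and 0.039. In the blocked fit with 12 libraries none of the 3 was called, with adjusted p values of 0.072, 0.063 and 0.069. RLE scaling moved the median difference over all genes from 0.05 to -0.07, and DESeq2 with the same scaling also called these 3. Without p53 KO doxorubicin 2, Npm1 (0.54, adjusted p = 0.036) and Nop56 (0.60, adjusted p = 0.037) were called as well.

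The Dux KO response was compared with the WT response in the same way, and no member was called by edgeR, against a background of 5.25% of genes, 2.1% up and 3.15% down. At an unadjusted p under 0.05 there were 2, Polr1a (-0.84, SE 0.25, adjusted p = 0.084) and Rrn3 (-0.56, SE 0.18, adjusted p = 0.1), and DESeq2 called these 2. With the line as a block, Polr1a, Rrn3 and Npm1 were called, with adjusted p values of 0.0018, 0.04 and 0.041. In the blocked fit with both Dux KO controls none of these 3 was called (adjusted p values of 0.16, 0.4 and 0.86), and the only call was Nop56, at -0.87 (adjusted p = 0.036). With Dux KO control 2 in place of control 1, the difference of Rrn3 was 0.06 (adjusted p = 0.95) and that of Npm1 turned from 0.63 to -0.36 (adjusted p = 0.58). For Ubtf and Polr1b the difference was -0.06 and -0.13, with 95% intervals of -0.42 to 0.31 and -0.69 to 0.43. The 2 interaction tests share the WT libraries.

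Under vehicle, no member was called between p53 KO and WT or between Dux KO and WT by edgeR, with 0.887% (0.14% up, 0.747% down) and 1% (0.656% up, 0.346% down) of all genes called. At an unadjusted p under 0.05 there were 1 member for p53 KO and 3 for Dux KO, and DESeq2 called 0 and 1. With the line as a block, no member was called for p53 KO, and Taf1d (-0.69, adjusted p = 0.016) and Nop58 (-0.60, adjusted p = 0.022) were called lower in Dux KO. These rest on Dux KO control 1, and with both controls in the blocked fit neither was called (adjusted p values of 0.14 and 0.15). In Dux KO control 2, Taf1d stood at 174 CPM and Nop58 at 381 CPM, against 121 and 290 CPM in control 1.

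Under doxorubicin, 7 members differed between p53 KO and WT, 4 higher and 3 lower in p53 KO. The background was 43.7% of all genes, 21.7% up and 22% down, and among genes of at least 5 CPM 31% up and 24.9% down. Polr1b, Fbl, Ubtf and Nop56 were higher, by 1.55 (SE 0.16, adjusted p = 0.0001), 1.08 (SE 0.12, adjusted p = 0.00015), 0.86 (SE 0.10, adjusted p = 0.00022) and 0.67 (SE 0.21, adjusted p = 0.031). Taf1d, Polr1a and Rrn3 were lower, at -0.72 (adjusted p = 0.0039), -0.48 (adjusted p = 0.034) and -0.40 (adjusted p = 0.018). Polr1b, Fbl and Ubtf were called in 15 of 15 alternatives, Taf1d in 12, Nop56 in 9, and Polr1a and Rrn3 in 7 each. Without WT doxorubicin a or b, 4 members were called. For Npm1, Ncl and Nop58 the level under drug was not shown to differ (0.24, 0.14 and 0.07, with 95% intervals of -0.17 to 0.66, -0.18 to 0.45 and -0.30 to 0.43).

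Between Dux KO and WT under doxorubicin, 6 members were lower in Dux KO and Fbl was higher. The background was 30.1% of all genes, 14.5% down and 15.6% up, and among genes of at least 5 CPM 12.5% down and 22.7% up. Taf1d was lower by the most, at -1.07 (SE 0.15, adjusted p = 0.00099), with 73.4 and 70.7 CPM against 145 and 158 CPM in WT. Nop56 was at -0.80 (adjusted p = 0.021), Polr1a at -0.55 (adjusted p = 0.028), Nop58 at -0.54 (adjusted p = 0.034), Rrn3 at -0.48 (adjusted p = 0.013), Ncl at -0.42 (adjusted p = 0.049) and Fbl at 0.41 (adjusted p = 0.03). Taf1d alone was called in 15 of 15 alternatives. Leaving out any of the 4 libraries, WT doxorubicin a or b or Dux KO doxorubicin 1 or 2, left Taf1d as the only call.

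The wider machinery was read out from lists of 109 other tested genes of Pol I, snoRNPs, ribosome assembly, nucleolar chaperones and rDNA silencing. In WT cells 55 of them (50.5%) fell and 8 rose, with a median log2 change of -0.45, where 36.7% of genes of at least 5 CPM fell. In p53 KO cells 22 (20.2%) fell and 2 rose (median -0.20), near the 15% of such genes that fell. In Dux KO cells 50 (45.9%) fell and 4 rose (median -0.54), where 20% of such genes fell. The p53 KO response differed from the WT response in 29 of the 109, 23 (21.1%) upward and 6 (5.5%) downward, where 14.8% of genes of at least 5 CPM were called upward and 15.3% downward. By list, in WT, 8 of 16 other Pol I subunits and factors fell and none rose, 7 of 14 other snoRNP genes fell and 1 rose, and 14 of 31 genes of the small-subunit processome fell and 4 rose. In large-subunit assembly 21 of 34 fell and 2 rose, and among nucleolar chaperones 5 of 9 fell and none rose. On the rDNA silencing list 2 of 8 fell and 1 rose. The gene that rose was Phf8, a histone demethylase of active rDNA rather than a silencing factor. The share that fell on this list was no higher than the 36.7% of genes of at least 5 CPM that fell in WT.

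**Figure D5:**
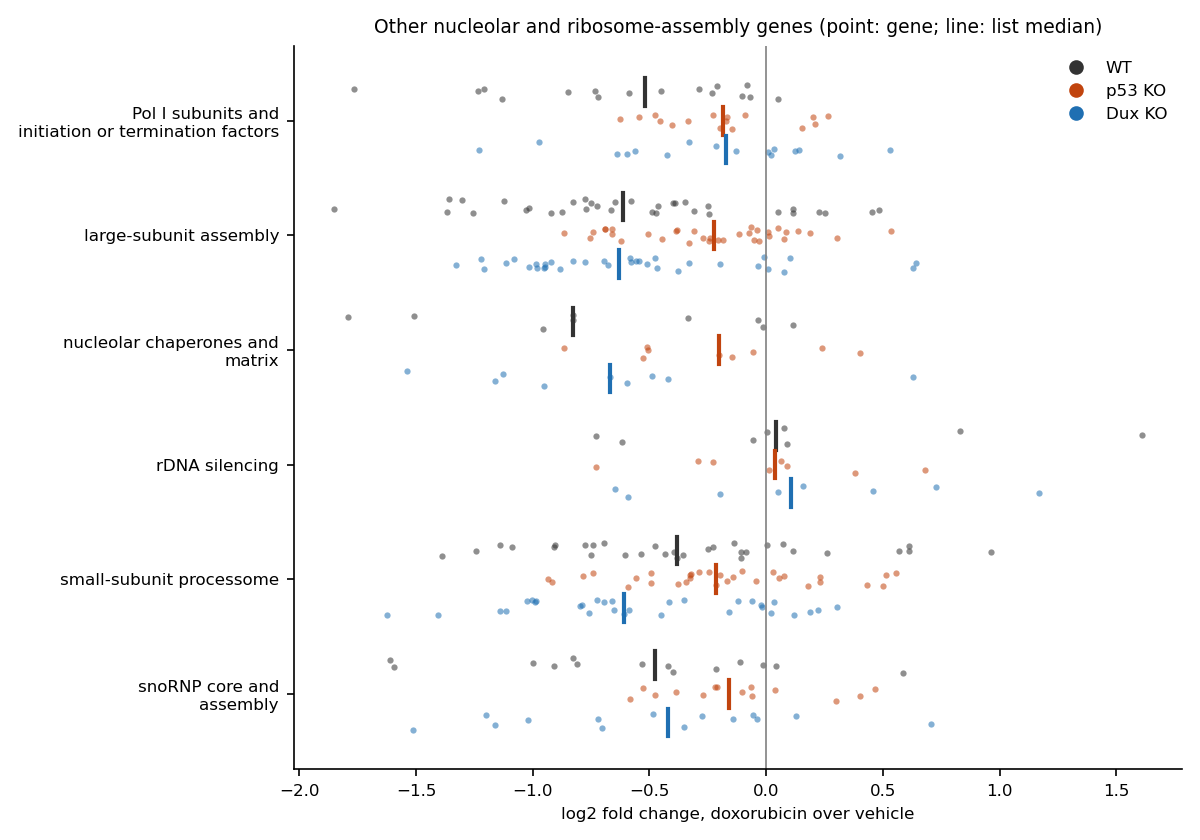
log2 change after doxorubicin (x axis) of nucleolar and ribosome-assembly genes other than the 10 members, by list (y axis) and genotype. Points are genes and thick lines list medians; in WT the median is -0.52 for Pol I genes, -0.61 for large-subunit assembly, -0.83 for chaperones, 0.04 for rDNA silencing, -0.38 for the small-subunit processome and -0.48 for snoRNP genes.

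The largest falls in WT within each list were read by a rule, 3 per list at 5 CPM or more. Among Pol I genes they were Polr2e, a subunit shared by all nuclear RNA polymerases (-1.77, SE 0.20), Znrd1 (-1.23, SE 0.16) and Twistnb (-1.21, SE 0.14), the last 2 being subunits specific to Pol I. Among snoRNP genes they were Nop10 (-1.61, SE 0.29) and Dkc1 (-1.60, SE 0.13), parts of the pseudouridine synthase particle, and its assembly factor Naf1, at 32.9 and 30.8 CPM with vehicle and 15.1 and 16.8 CPM with drug. In the small-subunit processome they were Emg1 (-1.39, SE 0.26), Wdr75 (-1.24, SE 0.16) and Wdr3 (-1.14, SE 0.13). In large-subunit assembly they were Noc2l (-1.85, SE 0.15), Gtpbp4 (-1.37, SE 0.11) and Nle1 (-1.36, SE 0.19). Among chaperones they were Tcof1, the treacle protein that works with UBTF at rDNA (-1.79, SE 0.14), Npm3 (-1.51, SE 0.23) and the helicase Ddx21 (-0.96, SE 0.11). Baz2a (-0.73, SE 0.20) and Smarca5 (-0.62, SE 0.17), which form the rDNA-silencing complex NoRC, also fell. All of these falls had adjusted p values of 0.015 or less.

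The WT libraries had 224 and 198 CPM of Tcof1 with vehicle and 59.7 and 62.1 CPM with drug. The p53 KO libraries had 249 and 226 CPM with vehicle and 238 and 191 CPM with drug. The groups overlapped in p53 KO and were far apart in WT, and the responses differed by 1.65 (SE 0.19, adjusted p = 0.00081). Differences between the responses were also called for Polr2e (1.36), Noc2l (1.19), Dkc1 (1.01) and Nop10 (1.65), with adjusted p values of 0.0094, 0.0039, 0.0053 and 0.022. In this test 20.2% of all genes were called, 9.9% up and 10.3% down, and among genes of at least 5 CPM 14.8% up and 15.3% down. These genes and Tcof1 were picked for large WT falls. The difference holds the same WT values, so the picking favours positive differences. The other named falls are not given for this test. Only called differences are listed here, so they do not stand for the named falls as a set. The rises by the same rule were Phf8, a histone demethylase of active rDNA (1.61, SE 0.14), Pwp2 (0.96, SE 0.15), Wdr46 (0.61, SE 0.16), Utp20 (0.61, SE 0.12), Znhit3 (0.58, SE 0.16), Rrp12 (0.48, SE 0.14) and Brix1 (0.45, SE 0.13). Phf8 stood at 31.1 and 34.1 CPM in WT with vehicle and 99.9 and 98.9 CPM after drug, and at 25.3 to 31.9 CPM in all p53 KO libraries. Of 3 ribosomal RNA loci, Gm26917 rose in WT (1.37, SE 0.30, adjusted p = 0.0045), the other 2 were not called, and rDNA transcripts are not a target of poly(A) selection.

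Across the 11 libraries with deposited counts, the genes whose log2 CPM followed each member most closely were read as a description, among 14623 to 14625 genes of at least 5 CPM that do not overlap the member. For Npm1 and Fbl the closest were their copies, Gm14681 (Pearson r 0.995) and Gm5812 (r 0.991), followed by Lrp1b and Srpk1. The closest 2 were Map2k6 and Il4i1 for Ubtf, Gm13698 and Bmp2k for Rrn3, Tm9sf4 and Cacna1c for Polr1a, and Smyd5 and Gemin5 for Polr1b. They were Fam133b and Nol10 for Taf1d, Tomm70a and Gm20537 for Ncl, Cops2 and Mthfd2 for Nop56, and Smc6 and Ccnh for Nop58. The r of these pairs ran from 0.972 to 0.997, over libraries that share the drug response.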

How the data were processed

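Whole-number counts per Ensembl gene were used as the authors deposited them, with the authors' FPKM values and the authors' log2 fold changes and adjusted p-values for their own WT comparison, all from deposited tables. TopHat2, DESeq and DESeq2, with build mm10, are named in the submitters' processing notes; the versions, the counter, its annotation and its strand setting are not given in the sources used. The 6 group-average FPKM columns were left out. Of 54532 identifiers, 54409 matched GENCODE M21 (GRCm38), the source of coordinates. The members and lists were chosen with earlier results of these data known. Named genes were all members, the 3 largest called rises and falls per list in WT at 5 CPM or more, the 2 closest patterns per member, and genes inside members.

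Genes were tested with edgeR 4.0.16 (R 4.3.3): TMM scaling, filterByExpr (minimum count 10), 1 mean per group, 11 libraries, 28643 genes, 5 residual degrees of freedom and Benjamini-Hochberg adjustment. CPM used TMM-corrected sizes. SE is the size of the log2 change over the square root of the F statistic. Counts of Dux KO control 2 were recovered from its FPKM (55639499 reads, with 100% of 2180 low values within 0.15 of a whole read; in libraries of known counts at least 96.6% of genes came within 1 read or 1%) and used in an alternative fit of 12 libraries. Per library, 26.4% to 33.4% of values from 500 upward were odd, so counts are not independent single reads and intervals cover only the spread modelled. Alternatives were RLE scaling, DESeq2 1.42.0, no filter, limma 3.58.1 on log2(FPKM + 1) or log2(FPKM + 0.1), each comparison's groups alone, leaving out each library, and the knockout line as a replicate block, centred so that a knockout stands for the mean of its lines. The line numbers in the labels pair the knockout libraries. Same-line libraries deviated together, with r = 0.708 in p53 KO and 0.222 in Dux KO over 14625 genes. WT libraries carry no number and were not paired. Adding pseudogene copies, and Dux KO control 2 in place of control 1, were chosen after seeing the data. Copies were aligned with Biopython 1.88.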

Additional observations from a re-analysis of the deposited data

Results flagged for a closer look

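Of the 10 genes, 3 responded to doxorubicin differently in p53 KO and WT cells by the edgeR interaction test. Of all genes tested, 20.2% were called in this test, 9.9% up and 10.3% down. Among genes of at least 5 CPM, 14.8% were called up and 15.3% down, so 3 of 10 was near the share called in either direction. For Polr1b the p53 KO response minus the WT response was 1.28 on the log2 scale, with 81.9 and 73.1 CPM in WT controls, 38.9 and 41.5 CPM in WT after drug, 101 and 86.2 CPM in p53 KO controls and 133 and 103 CPM in p53 KO after drug. The difference was 0.90 for Ubtf, which fell in both genotypes. The difference was 0.79 for Fbl, whose reads cannot be told apart with confidence from those of its copy Gm5812. The call of Fbl was lost without WT control b or WT doxorubicin b, and in the fit of 12 libraries without a block.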

How the results depend on the processing

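Each count of members called was recomputed under every alternative, and 1400 single-gene values with them. Of those, 1242 kept their side of the threshold, whatever their sign, 104 lost a call and 53 gained one. In 1 the called value had the opposite sign: Rrn3 in Dux KO, -0.10 with control 1 and 0.51 with control 2 in its place. The sign was opposite to that of the main fit in 91 of the 1400, and in only 1 of these was either value called. For example, Npm1 in Dux KO against WT under vehicle turned from -0.49 to 0.50 with control 2 in place. The p53 KO response (6 called) became 2 with limma on log2(FPKM + 1) without a filter and 0 in the fit to its own groups. The p53 KO minus WT difference (3) became 6 with RLE scaling, with DESeq2 and with the replicate block, each 3 up and 3 down. Of all 28643 genes, RLE scaling called 2275 up and 3427 down, DESeq2 3002 and 4190, and the block 5660 and 5136. The Dux KO minus WT difference (0) became 2 with DESeq2, 3 with the block, 1 with the block and 12 libraries, a different gene from those 3, and 5 in the fit to its own groups. Under vehicle, Dux KO against WT (0) became 1 with DESeq2, 2 with the block and 6 in the fit to its own groups. Under drug, p53 KO against WT (7) became 4 with 12 libraries, in each of the 3 limma fits and in the fit to its own groups. Dux KO against WT under drug (7) became 2 with 12 libraries, and 1, 3 and 1 in the limma fits (pseudocount 1, pseudocount 0.1, and 1 without a filter). Leaving out 1 library at a time, the counts were 8 to 9 in WT, 5 to 7 in p53 KO, 6 to 7 in Dux KO, 2 to 5 and 0 to 0 in the 2 differences, 0 to 0 in both vehicle comparisons, and 4 to 6 and 1 to 1 under drug. The replicate block changed no other count of calls by more than 1.5 times. In the p53 KO response it added Polr1a and Polr1b as rises and Fbl as a fall, and in WT it added Taf1d as a fall. None of these additions was called in the blocked fit with 12 libraries. The fits that raised the Dux KO counts from 0 also called far more of all genes than the main fit. Of these fits, only the block with 12 libraries holds both Dux KO controls. For the difference of responses, that fit called 1936 up and 1859 down of 26974 genes. The cause of the changes in all these counts was not tested. Over all genes, limma on FPKM moved the p53 KO response from 2668 up and 2318 down to 1780 up and 449 down, and the p53 KO minus WT difference from 2837 up and 2961 down to 3153 up and 1959 down. With 2 libraries per group, and 1 Dux KO control in the main fit, single-gene calls near the threshold are the least certain.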
